A study of Mus musculus with 6 samples.

Results

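The genes described here are targets of p53 that act in programmed cell death, examined in mouse tumour cells from the surface epithelium, the cell layer that covers the ovary, after brief culture. The list holds 10 genes: the receptors Fas, Eda2r and Tnfrsf10b, the mitochondrial death proteins Bbc3, Pmaip1 and Bax, the membrane protein Perp, the nuclease Aen, and the platform proteins Apaf1 and Pidd1. A gene was taken where a probe set, a group of short array probes for a transcript, was annotated with that symbol alone, and its probe set with the highest mean log2 signal was used. This gave values for 9 of the 10 genes, among 18194 genes measured in all. Bax, the pore-forming protein of the mitochondrial outer membrane, was not analysed here. Of the 9 genes, 8 passed the filter on dim genes and were tested, as were 10916 of all genes. Tnfrsf10b did not pass.

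The 6 arrays fell into 3 groups of 2. Wild-type cells expressed wild-type p53 and came from animals of 9 weeks. Heterozygous cells expressed wild-type p53 and Trp53 R172H and came from animals of 9 and 12 weeks. Homozygous cells carried Trp53 R172H on both alleles and came from animals of 4 weeks. All 3 groups bear the prefix P/K in their titles, which the labels do not spell out, and a mixed strain background. The series asks how expression differs with p53 status. The cells were freed with trypsin, plated in medium with serum and collected without passage. For the homozygous samples a second label gives a relative of Trp53 instead, and their titles were followed. Age could not be told apart from homozygosity, and nothing in the labels says whether the arrays of a group came from separate animals, so p-values measure the spread between these arrays.

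p53 is a transcription factor that raises genes of cell cycle arrest, of DNA repair and of cell death after damage. Its death targets act along separate routes. Death receptors such as Fas bind ligands at the cell surface and gather adaptor proteins and caspase-8. BH3 proteins such as PUMA, from Bbc3, and NOXA, from Pmaip1, bind the protective members of the BCL2 family at mitochondria, after which Bax and Bak open the outer membrane. Released cytochrome c then assembles with Apaf1 into the apoptosome, which activates caspase-9, while Pidd1 assembles a platform for caspase-2. The R172H change lies in the DNA-binding part of mouse p53 and is a structural mutant of the kind found often in human tumours.

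Promoter sequences are shown for Fas, Eda2r and Bbc3, tested members whose homozygous arrays both lay below both wild-type arrays. Pmaip1 met this condition too, but no window was taken for it and its promoter was not searched. Aen was added after its sequence was seen because it holds a p53 element and was not lower. The sequences shown are 300-base windows of the RefSeq annotation of GRCm38.p6, from 250 bases before to 50 bases after a transcript start. They are printed 5′ to 3′ on the gene's strand. Windows were taken for 7 of the 10 members. Bbc3 had 3 windows and Aen 2, and the window printed for each is one that holds an element, which for Bbc3 was 1 of the 3. Capitals mark a p53 response element, defined as a pair of p53 decamer consensus sequences end to end, with the central C, A or T, A or T, and G of each decamer required and up to 3 mismatches elsewhere. The definition was chosen with these sequences in view, and the consensus equals its own reverse complement, so the search covered both strands.
Fas, chr19:34290409-34290708, + strand: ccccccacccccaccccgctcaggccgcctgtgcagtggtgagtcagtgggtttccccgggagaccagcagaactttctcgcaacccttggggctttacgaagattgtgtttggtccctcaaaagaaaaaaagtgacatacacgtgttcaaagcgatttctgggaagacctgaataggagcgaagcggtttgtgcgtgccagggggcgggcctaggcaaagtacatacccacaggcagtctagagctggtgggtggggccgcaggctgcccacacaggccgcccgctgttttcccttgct
Eda2r, chrX:97377160-97377459, - strand: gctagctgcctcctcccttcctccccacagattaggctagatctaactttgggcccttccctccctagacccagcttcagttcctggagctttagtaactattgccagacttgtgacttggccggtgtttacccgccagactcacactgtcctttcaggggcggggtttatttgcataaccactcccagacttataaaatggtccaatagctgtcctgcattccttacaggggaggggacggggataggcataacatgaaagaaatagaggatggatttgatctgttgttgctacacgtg
Bbc3, chr7:16309333-16309632, + strand: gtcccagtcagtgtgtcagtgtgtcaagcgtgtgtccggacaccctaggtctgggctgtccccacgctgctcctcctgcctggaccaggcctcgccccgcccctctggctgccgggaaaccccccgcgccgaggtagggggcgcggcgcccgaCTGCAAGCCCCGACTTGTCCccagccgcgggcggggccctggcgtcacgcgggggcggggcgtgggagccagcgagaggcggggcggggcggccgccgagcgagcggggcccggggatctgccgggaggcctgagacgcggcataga
Aen, chr7:78895808-78896107, + strand: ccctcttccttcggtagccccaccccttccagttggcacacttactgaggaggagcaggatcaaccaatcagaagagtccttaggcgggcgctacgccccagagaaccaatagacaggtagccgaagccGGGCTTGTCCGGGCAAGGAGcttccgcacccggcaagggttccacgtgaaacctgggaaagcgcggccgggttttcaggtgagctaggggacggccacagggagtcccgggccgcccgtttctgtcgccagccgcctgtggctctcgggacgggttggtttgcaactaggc
The Bbc3 window holds 1 such element, with 3 mismatches, whose first base lies 97 bases before the start. The Aen window holds 1 as well, with 3 mismatches, 121 bases before the start, and its first decamer matches the consensus with none. The same element lies 10 bases after the other Aen start. An element of this form was present in 0.572% of 32851 promoter windows, and a decamer with no mismatch in 8.36%. The Bax window holds 1 decamer with no mismatch, with its first base at -201 from the start, but no element. No element was found in the Fas and Eda2r windows, in the windows of Bax, Apaf1 and Pidd1, or in the other windows of Bbc3, which says only that these letters are not in these windows. A match is a description of sequence and not evidence of binding.

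Signals are linear intensities in arbitrary units, and a background level of 24.5 was set by the highest of 18 values of bacterial Trpn control probe sets. Array medians were 41.1 and 49.0 in the homozygous arrays, both under the range of 49.7 to 60.6 in the others. Levels of different probe sets are not comparable, so each gene is compared only with itself across arrays. The arrays of the homozygous pair differed more from each other than those of the other pairs: the SD of the log2 difference within the pair was 1.30 over tested genes, against 0.60 for wild-type and 0.55 for heterozygous arrays. The log2 difference between the 3′ and the 5′ probe set of beta-actin, a sign of RNA integrity, was 0.59 and 0.39 in homozygous arrays and 0.66 to 0.96 in the others. The 5′ probe set of 18S ribosomal RNA gave 6696 on homozygous array 2, and the other 5 arrays ranged from 16873 to 22559. Markers of the surface epithelium, all 13 measured, summed to between 151855 and 211808 in the wild-type and heterozygous arrays and to 60315 and 77081 in the homozygous ones. Of the 13, Upk1b was called lower in homozygous cells and the other 12 were not called. Wt1, a transcription factor of the mesothelial lineage, was at 5949 and 8457 in homozygous arrays and between 13269 and 15008 elsewhere. Aldh1a2, at 1.06 and 1979 in the homozygous pair, was under background in array 1 and between 17461 and 19538 elsewhere. Krt18 overlapped: homozygous array 1, at 25436, was the highest of the 6 and array 2, at 5623, the lowest. Krt18 was the largest part of the sum of 60315 in homozygous array 1. Lrrn4, at 1938 and 9900 in the homozygous pair, overlapped too. The other markers of the list were lower in both homozygous arrays than in any other array.

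Homozygous against wild-type cells. In cells with R172H on both alleles, the receptors Fas and Eda2r fell to or under the background level. Bbc3 and Pmaip1 had lower signals without passing the test, Perp, Aen, Apaf1 and Pidd1 had no called change, and Tnfrsf10b was not tested. In bulk RNA, fewer cells of a type and less RNA per cell cannot be told apart. Of the 8 tested members, 2 fell, 0 rose and 6 did not pass by limma at an adjusted p under 0.05, against 2.67% called among all 10916 tested genes, 2.25% lower and 0.412% higher. Both homozygous arrays lay below both wild-type arrays for 4 of the 8, Fas, Eda2r, Bbc3 and Pmaip1, against 33.8% of all tested genes, and above for 0, against 27.4%. Fas, Eda2r and Pmaip1 passed the filter through their signals in the other groups, since their homozygous means lay under the filter's level of 60.2. Over all 9 measured members the median log2 fold change was -0.06, against -0.17 over all measured genes.

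**Figure D1:**
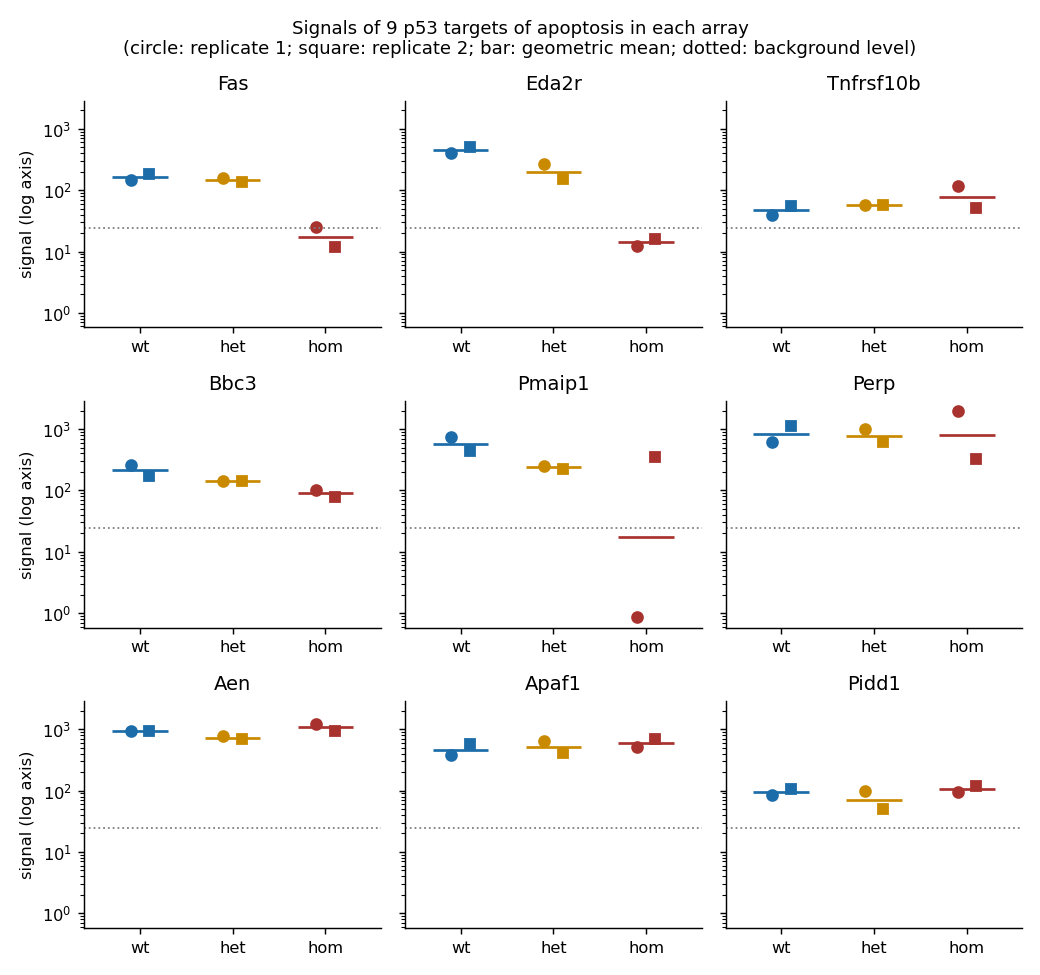
Signal of each measured member in each array on a shared log axis, by group (wt wild-type, het heterozygous, hom homozygous), with the geometric mean of each pair as a bar and the background level of 24.5 dotted. The homozygous points of Fas and Eda2r lie at or under the dotted line, those of Pmaip1 lie at 0.85 and 356, and those of Aen, Apaf1 and Pidd1 lie near the other groups.

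Fas encodes the receptor for Fas ligand, whose death domain recruits the adaptor FADD. Its signal was 148 and 186 in wild-type, 159 and 137 in heterozygous, and 24.8 and 11.8 in homozygous arrays. The wild-type and heterozygous arrays overlapped, and both homozygous arrays lay under all 4 of them, 1 just above and 1 under background. Against wild-type cells Fas fell by 3.28 ± 0.41 (SE) on the log2 scale (n = 2 arrays per group, limma adjusted p = 0.0317), or -2.75 with signals raised to background.

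Eda2r encodes the receptor of ectodysplasin A2, related to Fas. Its signal was 408 and 497 in wild-type, 269 and 150 in heterozygous, and 12.1 and 16.3 in homozygous arrays. The groups did not overlap, and both homozygous arrays lay under background, so that the level was at least 18.4-fold lower than in wild-type cells (limma adjusted p = 0.0136, n = 2). Eda2r and Bbc3 were the members whose arrays lay in the order wild-type, heterozygous, homozygous with no overlap, which held for 3.26% of all tested genes, and no member lay in the opposite order, which held for 2.36%.

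These calls rested on few arrays. The Fas and Eda2r calls against wild-type cells ended without wild-type array 1 (limma adjusted p = 0.218 and 0.153) or wild-type array 2 (adjusted p = 0.172 and 0.142), where Fas was at -3.45 and -3.12. They also ended without heterozygous array 1 (adjusted p = 0.118 and 0.0645) or array 2 (adjusted p = 0.116 and 0.0596), which enter only the estimate of spread. Without a homozygous array both were called, but the remaining array is then assumed to vary like those of the other groups, and the pair with the widest spread no longer enters that estimate, so this says little of stability. The Fas call also ended with arrays centred on their medians (-2.91, adjusted p = 0.0597) or quantile normalised (-2.93, adjusted p = 0.0539), and with no filter on dim genes both ended (adjusted p = 0.0865 and 0.0535), as they did with only the 2 groups compared (adjusted p = 0.116 and 0.0543).

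Some markers of other cells were lower where the receptors were, and others were not. All 12 macrophage markers were measured and summed to 2664 and 3217 in wild-type, 5633 and 5731 in heterozygous, and 537 and 718 in homozygous arrays. Of the 9 tested, 3 fell against wild-type and 4 against heterozygous cells, and the defining markers Lyz2, at 8.98 and 4.02, Tyrobp, at 4.01 and 4.50, and C1qa, at 2.61 and 3.22, were under background in both homozygous arrays. Ctss, at 3.55 and 22.8, and Ptprc, at 21.6 and 2.33, were under background in both as well. Others were not: Cd68 was at 67.7 and 71.3, Adgre1 at 41.5 and 61.8 and Csf1r at 55.7 and 488. Cd14, at 222 and 6.28, exceeded both wild-type values in homozygous array 1 and was under background in array 2. The macrophage sum was higher in heterozygous than in wild-type arrays, while Fas was at a similar level and Eda2r at a lower one. The 8 endothelial markers summed to between 9102 and 10946 in the wild-type and heterozygous arrays and to 1916 and 2765 in the homozygous ones. The sum came mostly from Esam, all 3 tested members of the list fell, and the defining marker Pecam1 was between 3.48 and 26.9 in the 6 arrays. The 9 measured granulosa and theca markers summed to between 3086 and 8033 in the wild-type and heterozygous arrays and to 669 and 2651 in the homozygous ones, with 0 of 4 tested called. Stromal markers summed to between 22589 and 39315 in the wild-type and heterozygous arrays and to 22595 and 56241 in the homozygous ones. Col1a2 and Dcn made up most of each sum. Of the 6 tested, Pdgfra was called lower in both comparisons with homozygous cells, and 0 were called higher. Pdgfra lay at 130 and 103 in the homozygous pair and between 615 and 1083 elsewhere. Thy1, at 3.44 and 37.3 in that pair, did not pass, and Col1a2, at 21105 and 32905, lay above all other arrays. For smooth muscle markers the sums were 20821 to 33479 in the wild-type and heterozygous arrays, then 11636 and 46768, with 0 of 3 tested called. For lymphocyte markers they were 302 to 402, then 258 and 237. Zap70, at 237 to 368, then 221 and 226, made up most of each lymphocyte sum. The part of any of these cells in the fall of Fas and Eda2r was not tested.

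Tnfrsf10b encodes the mouse receptor for the death ligand TRAIL. Its signal was 39.2 and 56.2 in wild-type, 57.3 and 57.6 in heterozygous, and 115 and 51.0 in homozygous arrays, above background throughout, and it was not tested. Its log2 fold change was 0.71 against wild-type cells, smaller than the difference of 1.18 within the homozygous pair. The other probe set of the gene had signals between 40.8 and 73.4 in all 6 arrays.

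Bbc3 encodes PUMA, a BH3 protein that neutralises the protective BCL2 proteins. Its signal was 264 and 174 in wild-type, 141 and 144 in heterozygous, and 103 and 78.4 in homozygous arrays. The log2 fold change against wild-type cells was -1.26 ± 0.30 and did not pass (limma adjusted p = 0.0818, n = 2), although the arrays did not overlap.

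Pmaip1 encodes NOXA, a BH3 protein that binds chiefly MCL1. Its signal was 754 and 438 in wild-type, 250 and 225 in heterozygous, and 0.85 and 356 in homozygous arrays. Homozygous array 1 was far under background and array 2 lay above both heterozygous arrays, so the arrays of this group differed by 8.71 on the log2 scale. The fold change against wild-type cells was -5.04 ± 2.70, or -2.62 with signals raised to background, and did not pass (limma adjusted p = 0.270). Homozygous array 1 decided the value: without it the fold change was -0.69, and without array 2 it was -9.40. The latter rests on the signal of 0.85, under background, and measures no level. With 1 homozygous array left, the spread in these fits comes from the other groups. The difference within the pair no longer enters it, so their p-values are not given.

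Perp encodes a membrane protein of desmosomes, the adhesive junctions of epithelia, that p53 raises during apoptosis. Its signal was 606 and 1139 in wild-type, 992 and 605 in heterozygous, and 1945 and 327 in homozygous arrays. The highest and the lowest of the 6 values were the homozygous arrays, and the fold change against wild-type cells was -0.06 ± 0.89 (limma adjusted p = 0.971). It was 1.23 without homozygous array 2 and -1.34 without array 1. Of 10 measured markers of junctional and squamous epithelium, 4 were higher in homozygous array 1 than in array 2, as Perp was, and 6 were lower. The desmosomal genes Dsp, at 453 and 35.6, Jup, at 842 and 353, and Pkp1, at 330 and 4.06, were among the 4, with Epcam at 27.6 and 22.2. The desmosomal cadherins Dsg2, at 759 and 5785, and Dsc2, at 53.3 and 65.7, were among the 6, with Cdh1, Pkp3, Krt5 and Krt14. The list summed to 2558 and 6569 in these arrays, a difference carried by Dsg2, and to between 3459 and 6420 in the others. The part of junction content in the Perp values was not tested.

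Aen encodes an exonuclease that degrades DNA and RNA in dying cells. Its signal was 924 and 953 in wild-type, 783 and 684 in heterozygous, and 1221 and 937 in homozygous arrays. The homozygous arrays overlapped the wild-type ones, with a fold change of 0.19 ± 0.24 (limma adjusted p = 0.634). Apaf1, the scaffold of the apoptosome, had signals of 381 and 571, then 644 and 404, then 519 and 687 in the 3 groups in the same order. All pairs of groups overlapped, and its fold change against wild-type cells was 0.36 ± 0.37 (limma adjusted p = 0.544). Pidd1, the death-domain protein of the caspase-2 platform, gave 83.2 and 108 in wild-type, 97.3 and 51.0 in heterozygous, and 93.3 and 121 in homozygous arrays. The groups overlapped here too, with a fold change of 0.16 ± 0.39 (limma adjusted p = 0.804). The signs of the Aen, Pidd1 and Perp values turned under some of the other settings.

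**Figure D2:**
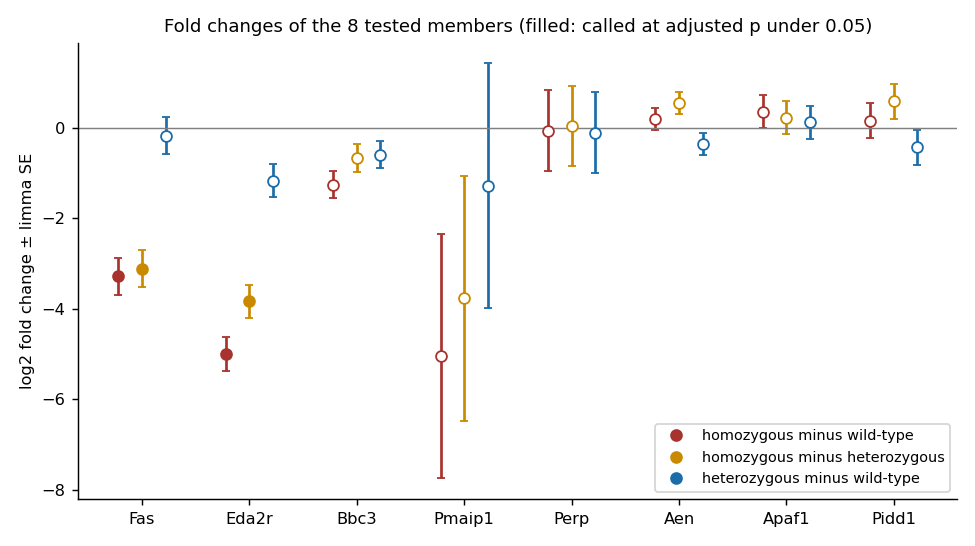
log2 fold change with its limma standard error for the 8 tested members in the 3 comparisons, filled where called at an adjusted p under 0.05. Fas and Eda2r are filled in both comparisons with homozygous cells, the bars of Pmaip1 are the widest at 2.70, and no point is filled for heterozygous against wild-type cells.

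Of the members with several probe sets, Aen had 4, and Apaf1 and Tnfrsf10b had 2 each. The next 2 Aen probe sets by mean had log2 differences of 0.44 and 0.25 between homozygous and wild-type cells, of the same sign as the first, while the dimmest had -1.27 with 1 homozygous array, at 9.19, under background. The dimmer Apaf1 probe set lay at 19.4 and 17.9 in wild-type arrays, under background, and between 33.1 and 75.0 in the other 4. The brighter one had no such gap. Fas, Eda2r, Bbc3, Pmaip1, Perp and Pidd1 each rested on a single probe set.

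**Figure D3:**
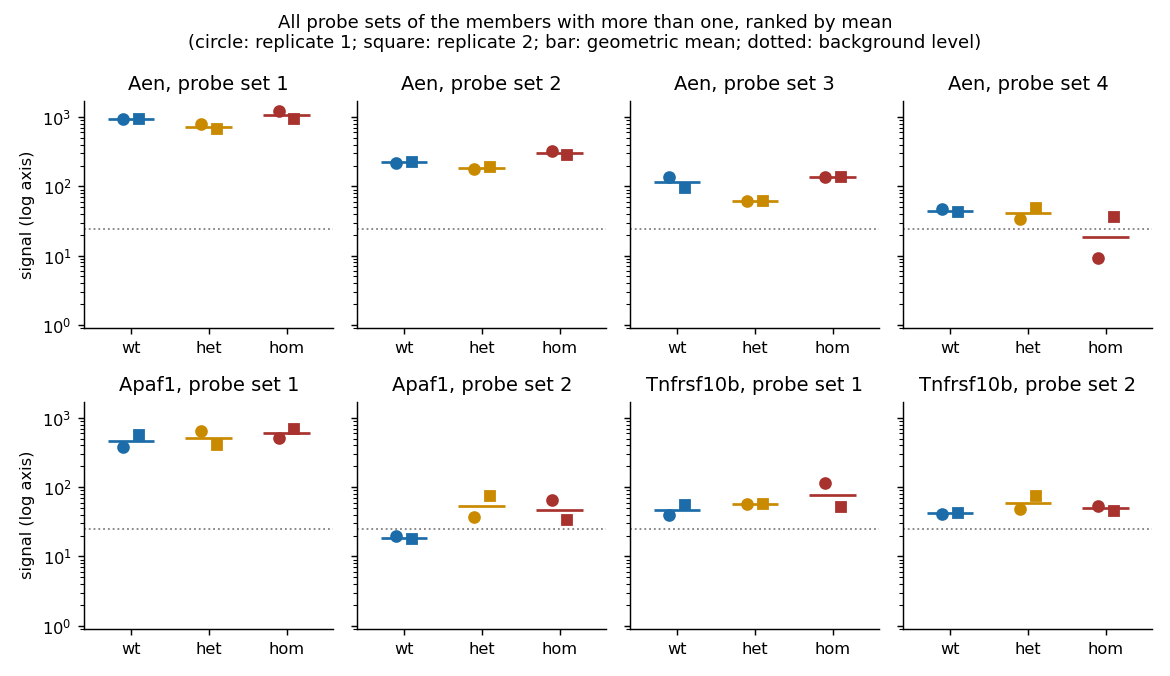
Signals of every probe set of Aen, Apaf1 and Tnfrsf10b by array on a log axis, ranked by mean, with the background level of 24.5 dotted. The 3 brightest Aen probe sets have higher homozygous than heterozygous points in every case, and the dimmest has a homozygous array at 9.19.

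Homozygous against heterozygous cells. Fas and Eda2r were lower in homozygous cells also when the comparison was with cells that keep wild-type p53, and these 2 of 8 tested members were again the called ones, 0 being higher. The background was 4.09% called, 3.22% lower and 0.87% higher. Fas fell by 3.11 ± 0.41 on the log2 scale (limma adjusted p = 0.0342), or -2.58 with signals raised to background. Eda2r was at least 8.18-fold lower (limma adjusted p = 0.0182). The comparison shares its homozygous arrays with the previous one and is not separate evidence.

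Bbc3 had a fold change of -0.67 ± 0.30 (limma adjusted p = 0.204) and its arrays did not overlap. Pmaip1 had -3.77 ± 2.70 (limma adjusted p = 0.386), which became 0.59 without homozygous array 1. Without array 2 it was -8.12, which again rests on a signal under background. Aen was the member whose homozygous arrays both lay above both heterozygous ones, with 0.55 ± 0.24 (limma adjusted p = 0.1997). The values were 0.04 ± 0.89 for Perp, 0.23 ± 0.37 for Apaf1, 0.59 ± 0.39 for Pidd1 and 0.42 for the untested Tnfrsf10b. Arrays lay below for 3 of 8 tested members and above for 1, against 34.2% and 28.2% of all tested genes, or 62.5% in either direction.

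The Fas and Eda2r calls against heterozygous cells ended without heterozygous array 1 (limma adjusted p = 0.173 and 0.141) or array 2 (adjusted p = 0.248 and 0.146), where Fas was at -3.004 and -3.22. They ended likewise without wild-type array 1 (adjusted p = 0.105 and 0.0808) or array 2 (adjusted p = 0.106 and 0.0823). The Fas call ended with centring (adjusted p = 0.0543) or quantile normalisation (adjusted p = 0.0517), and both ended with no filter (adjusted p = 0.0900 and 0.0572) or only the 2 groups compared (adjusted p = 0.104 and 0.0795). The median over the 9 measured members was 0.04, against -0.11 over all measured genes.

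Heterozygous against wild-type cells. No member passed where wild-type p53 was retained beside R172H. By limma 0 of 8 tested members and 0% of all tested genes were called. At an unadjusted p under 0.05 there were 1 member, Eda2r, and 71 genes, 0.65% of those tested. The spread used here is pooled, and 72.6% of the squared differences within pairs came from the homozygous arrays. With only the 2 groups compared, 2 members and 200 genes had an unadjusted limma p under 0.05, and 0 were called. The lack of calls is thus weak evidence of no change. Eda2r had a fold change of -1.17 ± 0.37 (limma adjusted p = 0.99996), and both heterozygous arrays, at 269 and 150, lay below both wild-type arrays, at 408 and 497. Pmaip1 and Bbc3 had values of -1.28 ± 2.70 and -0.59 ± 0.30. The large error of Pmaip1 comes from the homozygous pair, since the spread is pooled over groups; its wild-type arrays differed by 0.78 and its heterozygous arrays by 0.15 on the log2 scale.

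Aen had -0.36 ± 0.24, Pidd1 -0.43 ± 0.39, Fas -0.17 ± 0.41, Perp -0.10 ± 0.89 and Apaf1 0.13 ± 0.37. The heterozygous arrays lay below the wild-type arrays for Eda2r, Bbc3, Pmaip1 and Aen, 4 of 8 tested members, against 12.8% of all tested genes, and above for 0, against 13.2%. In either direction the background was 26%. Tnfrsf10b, which was not tested, lay above with a difference of 0.29. The median over the 9 measured members was -0.36, against -0.02 over all measured genes.

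Lists of other genes of the same routes were used to set the members beside their pathway. Counts at an unadjusted p under 0.05 are read against all tested genes, of which 28.9% passed that level against wild-type cells (17.2% lower, 11.7% higher) and 30.6% against heterozygous cells (18.2% lower, 12.5% higher). Medians are over measured genes. In the death receptor list, which holds ligands, receptors, adaptors and necroptosis genes, 23 of 24 genes were measured and 15 tested. Against wild-type cells 0 of 15 were called by limma, with a median of -0.47 against -0.17 over all measured genes. At an unadjusted limma p under 0.05, 4 were lower and 0 higher, beside the shares of 17.2% lower and 11.7% higher. Against heterozygous cells 1 fell, Tnfrsf1b, the second receptor of tumour necrosis factor, from 775 and 1087 to 280 and 325, by 1.60 ± 0.28 (limma adjusted p = 0.0491). Fasl, the ligand of Fas, lay between 15.2 and 32.02 in all 6 arrays and Eda, the ectodysplasin gene, between 4.14 and 42.3, near or under background, and were not tested.

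The signal of Ripk3, a kinase of necroptosis, was 574 and 691 in the wild-type pair and 84.3 and 361 in the homozygous pair (-1.85 ± 0.71, limma adjusted p = 0.166). Tnfrsf25, a further death receptor, had 163 and 163 against 28.1 and 86.8, and Tnfrsf21 had 96.1 and 89.5 against 1011 and 63.3. Neither passed.

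In the BCL2 family, 16 of 20 genes were measured and 13 tested. Bnip3, a BH3-related protein of mitochondria that low oxygen also induces, fell from 7394 and 6535 in the wild-type pair to 2174 and 2289 in the homozygous pair, by 1.64 ± 0.24 (limma adjusted p = 0.0435), and was the called gene in both comparisons with homozygous cells, 12 of 13 not passing in each. The BH3 gene Bmf had 533 and 386 against 201 and 173 (-1.28 ± 0.33, limma adjusted p = 0.0919). Bik, another BH3 gene, had 208 and 104 against 1.70 and 221, so that homozygous array 1 was the low one, as for Pmaip1. Bcl2l13 had 538 and 503 against 1469 and 890 (1.14 ± 0.30, limma adjusted p = 0.0970). The median was -0.49 against wild-type and -0.07 against heterozygous cells.

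Of 15 genes of the apoptosome, caspases and their inhibitors, 13 were measured and tested and 0 were called by limma against wild-type or heterozygous cells. At an unadjusted p under 0.05 there were 4 lower and 1 higher in the first and 3 lower and 2 higher in the second, or 5 of 13 in each beside the shares above, and the median against wild-type cells was -0.28. Casp9, the caspase that Apaf1 activates, had 600.3 and 281 in the wild-type pair and 221 and 113 in the homozygous pair, and Casp6, an effector caspase, 2471 and 1899 against 965 and 907. Htra2, a mitochondrial protease that antagonises caspase inhibitors, had 663 and 1071 against 2616 and 2250, and Birc5, survivin, 998 and 2922 against 5702 and 4170. The arrays of these genes did not overlap, as was so for 61.2% of all tested genes, and none passed.

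Casp2 and Cradd, which form the PIDDosome with Pidd1, were listed together with Madd, a death-domain protein that binds a receptor of tumour necrosis factor and is not part of that complex. All 3 were tested, and 0 were called by limma in each comparison (1 lower and 1 higher at an unadjusted p under 0.05 against wild-type cells, beside 28.9% of all genes). Casp2, the caspase that Pidd1 activates, had 1175 and 1061 in the wild-type pair and 2160 and 1827 in the homozygous pair (0.83 ± 0.25, limma adjusted p = 0.116). Cradd, the adaptor that joins Pidd1 to caspase-2, had 342 and 361 against 199.5 and 208 (-0.79 ± 0.21, limma adjusted p = 0.0995). Madd had 322 and 206 against 196 and 84.5.

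Other p53 targets linked to cell death numbered 11, of which 10 were measured, 9 tested and 0 called by limma. At an unadjusted limma p under 0.05 against wild-type cells, 3 were lower and 0 higher. The shares of all tested genes were 17.2% lower and 11.7% higher, and the list was not tested against them. The median of the list was -0.99, or -0.37 with signals raised to background. The genes named next were chosen after their values were seen. Trp53inp1, which promotes p53 activity and autophagy, had 5475 and 2585 in the wild-type pair and 51.6 and 938 in the homozygous pair (-4.10 ± 1.36, limma adjusted p = 0.132). Ei24, a protein of the endoplasmic reticulum, had 5112 and 5167 against 1680 and 2595 (-1.30 ± 0.28, limma adjusted p = 0.0704). Dapk1, a death-associated kinase, had 125 and 177 against 2.44 and 162, and Plagl1, an imprinted zinc finger gene, had 275 and 441 against 3.004 and 4467. For Dapk1, Plagl1, Trp53inp1, Bik and Pmaip1 homozygous array 1 was the lower of the pair, while for Fas, Perp and Tnfrsf21 it was the higher. The share of all tested genes on either side was not counted.

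Beside them stood the p53 targets of other functions. In the arrest and feedback list 2 of 10 tested genes, Cdkn1a and Ccng1, fell against wild-type cells, and Cdkn1a fell against heterozygous cells. Cdkn1a, the p21 cell cycle inhibitor, had 2519 and 2646 in wild-type, 1548 and 1437 in heterozygous, and 192 and 111 in homozygous arrays. Mdm2, the ligase that degrades p53, had 1192 and 942, then 939 and 933, then 1136 and 1253, and did not pass. In the list of mTOR restraint and repair 2 of 12, Ddit4 and Ddit4l, fell against wild-type cells, and these and Sesn1 fell against heterozygous cells. Ccng1, Ddit4, Ddit4l and Sesn1 were named after their values were seen. Without any 1 of the wild-type or heterozygous arrays, 0 of all tested genes were called against wild-type cells, so these calls ended too. Against heterozygous cells 7 genes were called without either wild-type array and 0 without either heterozygous array. The members' 2 of 8 in each comparison was not tested against these lists.

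**Figure D4:**
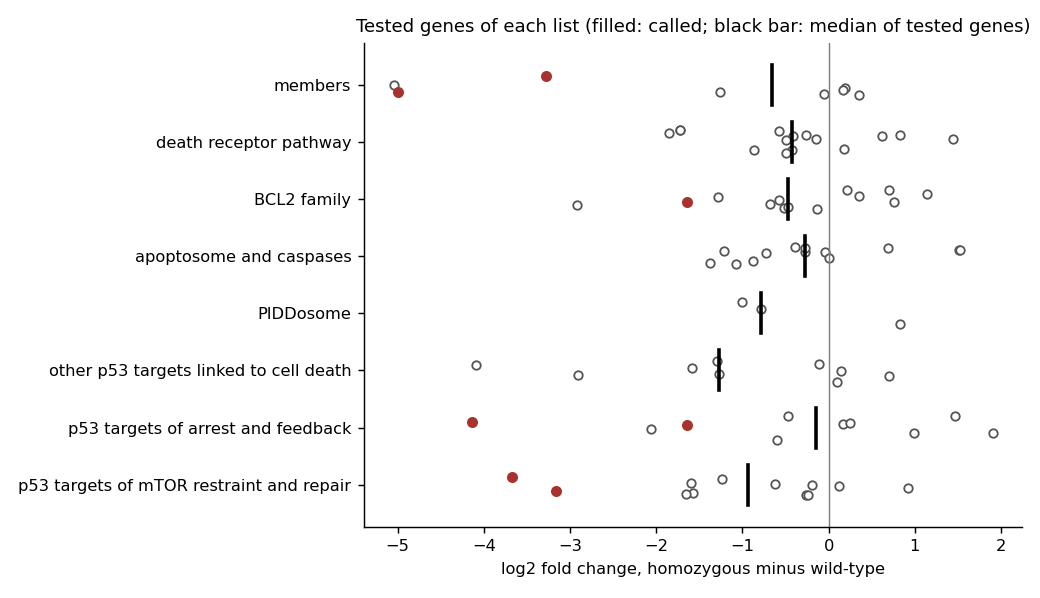
log2 fold change of homozygous minus wild-type cells for each tested gene of the members and of 7 other lists, filled where called, with the median of the tested genes as a black bar. Fas, Eda2r and Pmaip1 passed the filter through their signals in the other groups, so the bar of the members is not support for a fall. Over all 9 measured members the median was -0.06. The 2 filled member points are Eda2r at -5.00, a fitted value from signals under background, and Fas at -3.28, and the called genes of the other lists all lie left of 0.

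Under the other settings Fas and Eda2r stayed negative wherever they were tested against wild-type cells, from -3.82 to -1.99 for Fas. Fitted values of Eda2r rest on homozygous signals under background, measure no level there, and are given only where drawn. The fold change of Pmaip1 ranged from -9.40, which rests on a homozygous signal under background, to -0.69. Without the 2 arrays that lay close together, wild-type array 2 and heterozygous array 1, Eda2r was not called (limma adjusted p = 0.438) and Fas was not tested.

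**Figure D5:**
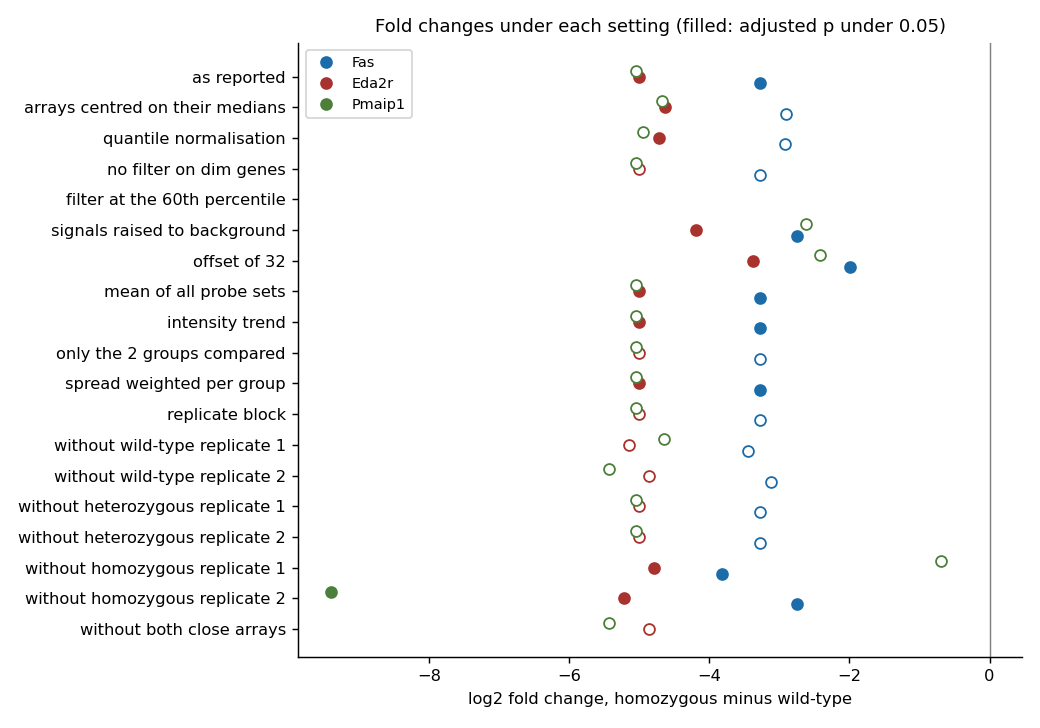
log2 fold change of homozygous minus wild-type cells for Fas, Eda2r and Pmaip1 as reported and under each other setting, filled where the adjusted p was under 0.05. The filter at the 60th percentile leaves none of the 3 genes tested, and Pmaip1 moves to -0.69 without homozygous replicate 1 and to -9.40 without homozygous replicate 2.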

How the data were processed

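Per the labels' protocols, biotin-labelled total RNA was hybridised to Affymetrix arrays. The deposited values are linear probe set intensities. The submitters' processing notes name RMA, with its version not given in the sources used here, but each array has a trimmed mean (central 96% of its values) of 500, the form of MAS 5.0 signals, whose log2 values scatter at low intensity. Of 45101 probe sets 34958 named 1 gene symbol, 932 several and 9211 none; of the first, 34754 were updated by Entrez identifier through RefSeq (GRCm38.p6). Log2 was taken with no offset or further normalisation. Genes with a mean at or above the 40th percentile were tested with limma 3.58.1 (R 4.3.3) on 6 arrays, with a mean for each of 3 groups, 3 residual and 2.26 prior degrees of freedom, and two-sided Benjamini-Hochberg adjusted p over all tested genes. The procedure was tested on simulated data in which each gene had the same spread in all groups. The homozygous arrays here spread more widely, which that test did not cover. The transcript of the mutated gene is not reported here. Arrays have no count depth, and their number limits the precision. Alternatives were scaling, filters, offsets, probe sets, moderation, spread, the replicate block and leaving out arrays. The members, lists and tests were chosen with earlier results of these data known. All members are named. Other lists give up to 4 genes, called ones first and then those with the largest fold change against wild-type cells, beside Cdkn1a, Mdm2 and genes said to be chosen otherwise. Python 3.11.15 with matplotlib 3.10.9 made the figures.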

Additional observations from a re-analysis of the deposited data

How the results depend on the processing

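Of 468 recomputed fold changes of members, 414 kept their side of the threshold and, except for the untested Tnfrsf10b against heterozygous cells (0.42, and -0.17 without homozygous array 1), their direction. A further 34 lost the call, 2 gained it, 17 turned sign and 1 other untested value moved. All 34 belonged to Fas and Eda2r, the members called. In each comparison with homozygous cells Fas lost its call in 9 of 16 settings and Eda2r in 8 of 17. The other values had no call to lose. Members called against wild-type cells numbered 1 with arrays centred on their medians or with quantile normalisation, and 0 with no filter, a 60th-percentile filter, only the 2 groups compared, the replicate block, or both close arrays left out, against 2 as reported. Against heterozygous cells these counts were the same in each of these settings, and leaving out 1 array gave 0 to 3 in both comparisons and 0 to 0 for heterozygous against wild-type cells. All genes called with the replicate block were 0 and 19, against 291 and 446. Deviations of same-numbered arrays correlated at -0.30, -0.10 and 0.16, so the numbers do not pair the arrays. With the heterozygous numbers crossed, chosen after seeing the data, 1 member was called in each. Centring moved the median of all tested genes from -0.09 to 0.28. Some values near 0 turned sign. Against wild-type cells Perp was 0.31 with centring and 0.40 without both close arrays, and Aen was -0.10 when probe sets were averaged. Leaving out 1 array moved Perp from -1.34 to 1.23, Aen from -0.0025 to 0.38 and Pidd1 from -0.027 to 0.35 against wild-type cells. Against heterozygous cells it moved Perp from -1.24 to 1.33, Apaf1 from -0.11 to 0.57 and Pmaip1 from -8.12 (without homozygous array 2) to 0.59 (without array 1). For heterozygous against wild-type cells it moved Apaf1 from -0.21 to 0.47, Perp from -0.56 to 0.35 and Pidd1 from -0.89 to 0.037. The counts of the other lists moved by over 1.5 times in 105 of 378 cases. The cause of these changes was not tested.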
